A study of Mus musculus with 778 samples.

Results

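Replacement histones are made outside of DNA replication and take the place of the canonical histones in cells that no longer divide, as the growing oocyte does not. The transcripts of 10 genes of this system were followed through oocyte growth: the linker histones H1foo and H1f0, the pair H3f3a and H3f3b that encode H3.3, the H2A variants H2afz, H2afv, H2afx and H2afy, and the histone chaperones Hira and Npm2. The genes were taken by name, with earlier results of these data known, and 10 of 10 were found among the 23201 genes of the count table. All 10 were detected, and Hira alone stayed below 10 CPM (counts per 1000000 UMIs) in each of the 5 stages.

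Single oocytes were isolated from ovaries of wild-type ICR mice and sorted into stages by diameter. Non-growing oocytes (NGO, below 20 μm) came from mice aged 3 to 4 days, whereas growing oocytes (GO1, 30 to 45 μm, GO2, 50 to 55 μm and GO3, 60 to 65 μm) and fully grown oocytes (FGO, above 70 μm) came from mice aged 3 to 4 weeks, so that stage and age cannot be told apart in any comparison with NGO. Single-cell RNA-seq with unique molecular identifiers (UMIs, which count each captured RNA molecule once) gave 46 NGO, 51 GO1, 26 GO2, 44 GO3 and 56 FGO, made in 4 libraries. The columns of the table name a stage and a cell but no library or animal, so each stage is 1 pooled sample without replicates and no test between stages was made.

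Background on these proteins helps in reading the values. Nucleosomes wrap DNA around H2A, H2B, H3 and H4, and a linker histone of the H1 family sits where the DNA enters and leaves. H1foo is the linker histone of oocytes and early embryos, H3.3 is placed into chromatin independently of replication by complexes such as that of Hira, H2A.Z (from H2afz and H2afv) marks promoters, H2A.X is phosphorylated at DNA breaks, macroH2A (from H2afy) carries a large extra domain, and nucleoplasmin 2 (Npm2) is an oocyte chaperone that acts on chromatin around fertilization.

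Pairs of genes with near-identical products were read apart as follows. H3f3a and H3f3b encode the same protein, whereas their coding sequences of 411 bases differed at 95 positions (76.9% identity), of which 81 (85.3%) fell on the third base of a codon. H2afz and H2afv, with 387 coding bases, differed at 81 positions (79.1% identity), 70 of them (86.4%) at the third base. The longest run shared by H3f3a and H3f3b was 23 bases and that of H2afz and H2afv was 14 bases, so a read that lies in the coding part and is longer than this carries a difference. The first 60 coding bases from the NCBIM37 transcripts are shown to make this visible, with the bases that differ within each pair in capitals:
H3f3a: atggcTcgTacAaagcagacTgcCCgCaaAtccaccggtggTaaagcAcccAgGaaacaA
H3f3b: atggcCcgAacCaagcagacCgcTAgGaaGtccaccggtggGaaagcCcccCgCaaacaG
H2afz: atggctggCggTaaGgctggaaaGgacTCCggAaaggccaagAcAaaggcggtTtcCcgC
H2afv: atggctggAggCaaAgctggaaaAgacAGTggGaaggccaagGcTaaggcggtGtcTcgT
In the annotation 2 pseudogenes are named for H3f3a, and exons of H3f3a overlap those of Gm17275 and Gm16067 on the other strand. Whether counting used the strand is not stated, so reads of these genes and of H3f3a cannot be told apart.

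A level is the sum of the UMIs of a gene in all cells of that stage per 1000000 UMIs of the stage, and intervals are exact at 95% and cover counting error only. A size rule stands in for a test: a ratio of 2 stages of 2-fold or more, with 10 CPM or more in the higher one. Where 5 values follow each other, they are those of NGO, GO1, GO2, GO3 and FGO in this order. Stage totals ran from 24976634 UMIs in GO2 to 64311908 in FGO, with a median per cell of 110146 UMIs in GO1 and of 540432 to 972294 in the others. Depth was uneven within stages, most of all in GO1, where the 10 deepest of 51 cells held 80.4% of the UMIs (42.6% to 73.2% elsewhere), and therefore each GO1 level of a member is given with the median over cells, and the calls that involve GO1 also by the mean over cells. The oocyte label was checked first, with a marker counted where its highest stage reached 10 CPM. This held for 12 of 12 oocyte markers (summed level 18710 to 35362 CPM over the stages). Not all of them did so in every stage, since Sohlh1 had 374, 0.34, 0.96, 2.35 and 19.2 CPM from NGO to FGO. Granulosa markers summed to 15.9 to 43.995 CPM (2 of 10 reached 10 CPM) and endothelial markers to 7.98 to 51.2 CPM (1 of 5). Stroma and theca markers summed to 0.46 to 8.06 CPM (0 of 7) and blood markers to 2.14 to 6.06 CPM (0 of 6, with 4 at 0 in every stage).

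**Figure D1:**
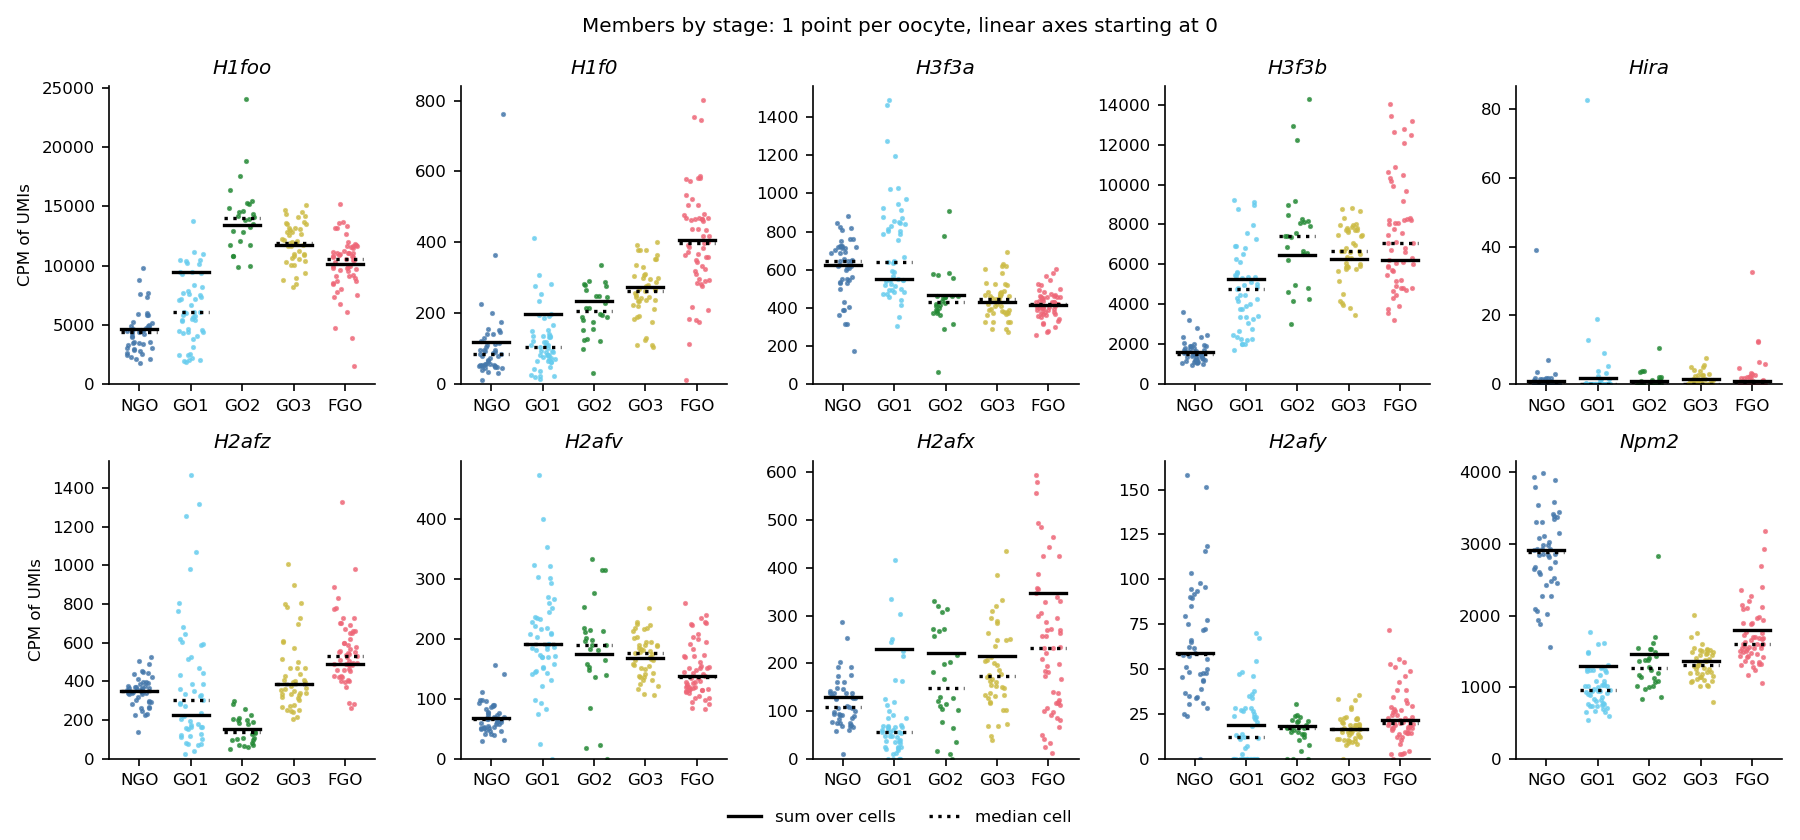
CPM of each of the 10 genes (linear axes from 0) in every oocyte, grouped by stage, with 1 point per oocyte, a solid bar for the stage sum and a dotted bar for the median cell. H3f3b, H1foo and H2afv stood higher and Npm2 and H2afy lower after NGO, and H2afz was lowest in GO2. In GO1 the solid and dotted bars of several genes stand apart, among them H2afx, H1f0 and H1foo.

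From NGO to GO1, 5 of the 9 members with at least 10 CPM differed at least 2-fold: H3f3b, H2afv and H1foo were higher in GO1, and H2afy and Npm2 were lower. This share has to be read against the transcriptome, in which 46.3% of 8527 genes passed the same rule (20.6% higher and 25.7% lower). By the mean over cells 4 of 9 members passed, without H1foo, and 56.6% of 8539 genes did. In the sums the median log2 difference of the members was 0.73, against -0.15 over all genes. Among the 9 members this middle value was that of H1f0, which was 1.66-fold higher by sums but 1.11-fold by the mean over cells. The other 4 members, H1f0, H3f3a, H2afz and H2afx, lay below 2-fold in the sums, and each of these 4 changed its sign between sums and at least 1 way of weighing the cells.

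H1foo (chr6:115894956-115900254, NCBIM37, plus strand) encodes the oocyte linker histone. Over the 5 stages its levels were 4651, 9435, 13459, 11723 and 10129 CPM, and the median cell stood at 4421, 6046, 14042, 11939 and 10522 CPM. Single NGO ran from 1800.5 to 9802 CPM, GO1 from 1849 to 13719, GO2 from 9881 to 24020.2, GO3 from 8190.0 to 15080.3 and FGO from 1529 to 15179. The stages thus formed a rise up to GO2 and a slight decline after it, with NGO and GO1 overlapping over most of their range.

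The size of the first step of H1foo depended on how cells were weighed. GO1 was 2.03-fold above NGO in the sums (2.01 to 2.04), but 1.45-fold in the mean over cells and 1.37-fold in the median, both short of the 2-fold limit. From GO1 to GO2 the order was the reverse, with 1.43-fold in the sums and 2.21-fold in the mean over cells. In GO1 the 10 deepest cells held 9989 CPM and the other 41 held 7157 CPM, and over the 51 GO1 cells the level and the depth had a Spearman correlation of 0.65, a description of cells that share libraries. Their part in the 2 steps was not tested. At the second step, 26 of 26 GO2 cells lay above the median GO1 cell and 15 above the highest. NGO and FGO differed 2.18-fold (2.16 to 2.19), with 36 of 56 FGO above the highest NGO. The highest count of any member in a single cell was that of H1foo, with 40829 UMIs in a GO1 oocyte, and the length of the UMI, which limits how many molecules can be told apart, is not given in the sources used here.

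H1f0 (chr15:78859152-78859689, plus strand, listed as a pseudogene in this annotation) encodes the replacement linker histone of somatic cells, H1.0. From NGO to FGO it stood at 118.2, 197, 235, 275 and 407 CPM, and the median cell at 84.02, 105.7, 206, 263 and 399 CPM. In both measures the level was higher at each later stage. Single cells overlapped between neighbouring stages, though 28 of 56 FGO lay above the highest GO3 (400.1 CPM). By sums no single step reached 2-fold, with 1.66-fold from NGO to GO1, 1.19-fold from GO1 to GO2, 1.17-fold from GO2 to GO3 and 1.48-fold from GO3 to FGO. The step from GO1 to GO2 was 1.70-fold by the mean over cells, 1.95-fold by the median and 2.05-fold with cells thinned to 20000 UMIs. Over longer spans FGO were 3.45-fold above NGO (3.32 to 3.58) and 2.07-fold above GO1 (2.01 to 2.13). The step from NGO to GO1 was 1.11-fold in the mean over cells, and its sign turned in 2 of 6 alternatives.

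The promoters of H1foo and of H3f3b are shown as contrasting starts of 2 genes that were both higher in FGO than in NGO. They are from RefSeq (GRCm38.p6), cover the 250 bases before the start of the gene and read in the direction of the gene, at chr6:115944681-115944930 on the plus strand and chr11:116024505-116024754 on the minus strand, with matches to CANNTG (the E-box, read by basic helix-loop-helix factors such as Figla of oocytes) and to TATAAA in capitals:
H1foo promoter: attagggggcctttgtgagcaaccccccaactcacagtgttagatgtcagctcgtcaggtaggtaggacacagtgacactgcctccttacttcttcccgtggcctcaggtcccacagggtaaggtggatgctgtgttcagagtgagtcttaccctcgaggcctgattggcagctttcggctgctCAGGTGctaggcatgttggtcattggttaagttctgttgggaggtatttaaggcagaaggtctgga
H3f3b promoter: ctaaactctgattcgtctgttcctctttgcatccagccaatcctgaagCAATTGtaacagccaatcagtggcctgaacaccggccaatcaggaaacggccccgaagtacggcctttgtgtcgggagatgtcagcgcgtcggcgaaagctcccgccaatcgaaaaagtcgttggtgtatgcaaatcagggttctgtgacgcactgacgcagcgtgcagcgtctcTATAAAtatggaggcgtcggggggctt
The H1foo window has 1 CANNTG, 66 bases before the start, and no TATAAA, and the H3f3b window has 1 CANNTG, 202 bases before the start, and 1 TATAAA. With the next 50 bases included, H1foo held 5 CG dinucleotides and H3f3b 24, while the other 6 members with an entry held 27 to 39. Both strands were searched in windows of 300 bases, of which 72.3% of 32851 RefSeq promoters hold a CANNTG and 13.6% a TATAAA. These matches describe letters and not sites.

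H3f3b (chr11:115883226-115889276, minus strand) had the largest ratio of FGO to NGO of the members by sums (3.84-fold, next to 3.45-fold for H1f0), while by the median cell H1f0 had 4.75-fold and H3f3b 4.67-fold. Its sums gave 1621, 5253, 6458, 6268 and 6233 CPM, and the median cell stood at 1511, 4761, 7412, 6689 and 7061 CPM. GO1 was 3.24-fold above NGO (3.20 to 3.28), and 2.92-fold in the mean over cells. All 51 GO1 cells lay above the median NGO, and 35 of them above the highest (3621 CPM). From GO1 on the sums moved by at most 1.23-fold per step, with single cells spread from 3024 to 14271 CPM in GO2 and from 3220 to 14032 in FGO. FGO were 3.84-fold above NGO (3.81 to 3.88), and 54 of 56 FGO lay above the highest NGO.

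H3f3a (chr1:182730963-182744074, minus strand), which codes for the same H3.3 protein, did not share this course. The 5 levels of H3f3a were 625, 551, 469, 432 and 417 CPM, and the median cell stood at 646, 639, 433, 447 and 421 CPM. No comparison reached 2-fold, and FGO were 1.497-fold below NGO (1.47 to 1.53), with 56 of 56 FGO below the median NGO. From NGO to GO1 the difference was 1.13-fold lower in the sums and 1.17-fold higher in the mean over cells. Single GO3 ran from 272 to 692 CPM and single FGO from 259 to 605 CPM.

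H3f3a accordingly took a smaller part of the H3.3 transcripts after NGO. It made up 27.8% (exact binomial 95% interval 27.4 to 28.2) of the UMIs of the pair in NGO and 9.49% (9.34 to 9.63) in GO1. Of the later stages GO2 had 6.77%, GO3 6.45% and FGO 6.28% (6.20 to 6.35). The median cell gave 29.3%, 12.6%, 5.37%, 6.12% and 6.17%. A share within 1 stage does not rank the transcripts, since their lengths and capture differ. Length cancels between stages where each gene keeps the same transcript forms. Whether these forms or capture differed between stages was not tested. Single NGO ranged from 7.96% to 42.7% and single FGO from 2.04% to 11.4%, so that the ranges overlapped at the edge only.

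**Figure D2:**
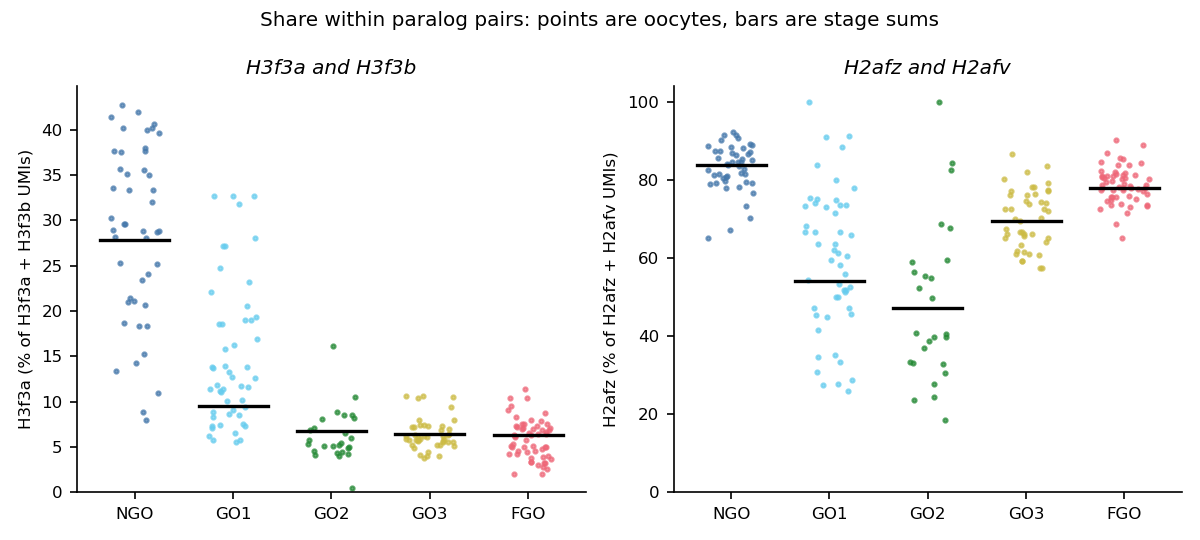
Share of H3f3a in the summed UMIs of H3f3a and H3f3b (left) and of H2afz in those of H2afz and H2afv (right), in % on linear axes from 0, with 1 point per oocyte and a bar for the stage sum. The H3.3 share went from 27.8% in NGO to 9.49% in GO1 and stayed near 6% afterwards, whereas the H2A.Z share went from 83.7% down to 47.3% in GO2 and back up to 77.96% in FGO.

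Hira (chr16:18877130-18970402, plus strand) codes for the core of a chaperone complex that deposits H3.3. Its sums held 22, 44, 25, 67 and 67 UMIs, that is 0.873, 1.64, 1.001, 1.34 and 1.04 CPM. The median cell had no UMI in any stage, and 14 of 46 NGO, 12 of 51 GO1, 11 of 26 GO2, 21 of 44 GO3 and 23 of 56 FGO had at least 1. The interval of GO1 over NGO ran from 1.11 to 3.3003 and that of FGO over NGO from 0.728 to 2.03. These intervals cover counting error only, and with 1 pooled sample per stage they do not show whether Hira changed between stages. Exons of Hira overlap those of Gm15797 on the same strand.

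H2afz (chr3:137527451-137529886, plus strand), one of the genes for H2A.Z, had its lowest level in the middle of growth. By sums it stood at 352, 225, 156.6, 384 and 489 CPM, and the median cell at 352, 304, 136.7, 388 and 533 CPM. From GO2 to GO3 H2afz was 2.45-fold higher (2.37 to 2.54), as the 1 of 9 members that passed the rule at this step, where 4.35% of 7334 genes did (3.34% higher in GO3). All 44 GO3 lay above the median GO2 and 35 of them above the highest GO2 (299.8 CPM), and this step exceeded 2-fold in 6 of 6 alternatives.

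The level of H2afz before GO2 was less certain. Single GO1 ran from 25.2 to 1468 CPM, against 136.2 to 525 in NGO, and 14 of 51 GO1 lay above the highest NGO while 11 lay below the lowest. The 10 deepest GO1 held 178 CPM and the other 41 held 417 CPM. GO2 were accordingly 1.43-fold below GO1 in the sums, but 2.67-fold below in the mean over cells and 2.89-fold without the 10 deepest cells of each stage. All 26 GO2 lay below the median GO1.

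H2afv (chr11:6327229-6344446, minus strand), the other gene for H2A.Z, went its own way. H2afv had 68.4, 191, 175, 168 and 138.3 CPM, and the median cell had 66.03, 191, 191, 176 and 136.1 CPM. GO1 was 2.79-fold above NGO (2.64 to 2.95) and 2.91-fold in the mean over cells, with 37 of 51 GO1 above the highest NGO (155.6 CPM). After GO1 no step of H2afv exceeded 1.22-fold in the sums, whereas FGO were 1.29-fold below GO3 by the median cell. As a part of the pair, H2afz made up 83.7%, 54.1%, 47.3% (46.2 to 48.3 in GO2), 69.6% and 77.96% of the UMIs over the stages. The median cell gave 83.996%, 60.6%, 40.7%, 70.2% and 78.6%. Without the 10 deepest cells the GO1 share was 65.1%, and GO2 remained the lowest stage at 43.5%.

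H2afx (chr9:44142798-44144154, plus strand), the gene for H2A.X, had the widest ratio between deep and other GO1 cells among the 9 members. Sums gave 129.1, 231, 222, 215 and 348 CPM, whereas the median cell gave 109.6, 56.3, 148.01, 173 and 232 CPM. The GO1 value was therefore the second highest by sums and the lowest by the median cell, and GO1 was 1.79-fold above NGO by sums and 2.32-fold below it without the 10 deepest cells of each stage. In GO1 the 10 deepest cells held 274 CPM and the other 41 held 52.9 CPM, and the deepest 10 were higher in each of the other stages as well (137.9 against 122.5 in NGO, 241 against 170 in GO2, 249 against 185 in GO3 and 440 against 256 in FGO).

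**Figure D3:**
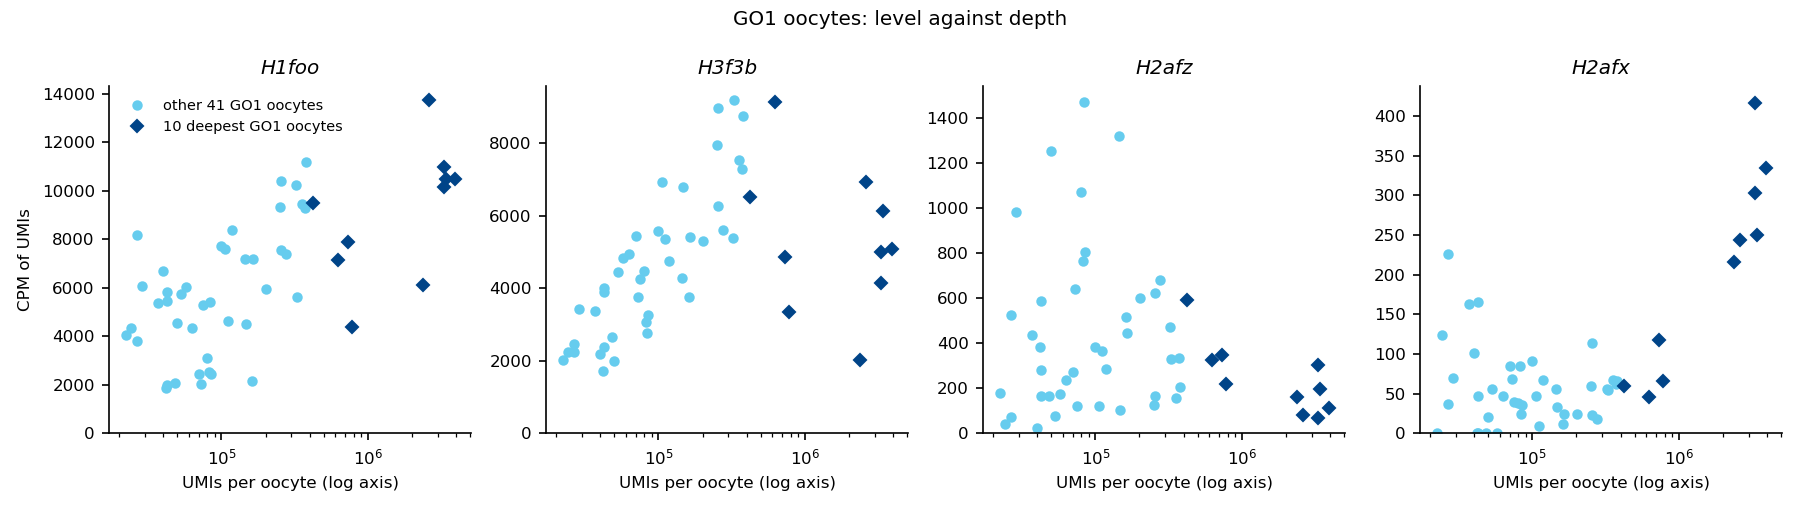
CPM of H1foo, H3f3b, H2afz and H2afx (linear axes from 0) against the UMIs of each of the 51 GO1 oocytes (log axis), with the 10 deepest as dark diamonds. The 6 cells above 1000000 UMIs have 216 to 417 CPM of H2afx, and the other 45 have 0 to 226.

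The depth of the GO1 cells had a gap, with 45 cells of 22279 to 782536 UMIs and 6 cells of 2380942 to 3898137 UMIs, which held 70.9% of the UMIs of the stage. This division was made after the values were seen. H2afx was 216 to 417 CPM in the 6 deep cells and 0 to 226 CPM, with a median of 55.0, in the 45 others, and these ranges met at their ends only. H2afz in the same 6 cells was 68.9 to 304 CPM, with a median of 136.8 against 335 in the others. Over cells, the Spearman correlation of H2afx with depth was 0.32, 0.32, 0.77, 0.40 and 0.73 in the 5 stages. When each cell was thinned to 20000 UMIs, H2afx was seen in 40 of 46 NGO and 29 of 51 GO1. FGO remained 2.70-fold above NGO in the sums and 2.02-fold in the mean over cells, with 44 of 56 FGO above the median NGO.

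H2afy (chr13:56174980-56237722, minus strand), which codes for macroH2A1, was highest before growth. The sums were 59.01, 18.8, 18.1, 16.7 and 21.6 CPM, and the median cell stood at 58.4, 12.3, 17.2, 16.6 and 20.1 CPM. GO1 was 3.14-fold below NGO (2.83 to 3.48) and 3.72-fold by the mean over cells, and 49 of 51 GO1 lay below the median NGO. Later steps stayed within 1.30-fold in the sums, while by the mean over cells FGO were 1.40-fold above GO3. In the sums FGO were 2.73-fold below NGO (2.54 to 2.94). In cells thinned to 20000 UMIs, where a level of 50 CPM is worth 1 UMI, 31 of 46 NGO and 12 of 51 GO1 had a UMI of H2afy.

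Npm2 (chr14:71047109-71052891, minus strand), the oocyte nucleoplasmin, was also highest in NGO. Npm2 had 2920.4, 1302, 1469, 1366 and 1798 CPM, and the median cell was at 2891, 954, 1267, 1306 and 1607 CPM. GO1 was 2.24-fold below NGO (2.21 to 2.27) and 2.87-fold below in the mean over cells. Single cells hardly overlapped, since 48 of 51 GO1 lay below the lowest NGO (1563 CPM) and 51 of 51 below the median. The level of FGO was 1.32-fold above that of GO3 (1.30 to 1.33) and 1.62-fold below that of NGO (1.61 to 1.64), neither of which reached 2-fold.

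**Figure D4:**
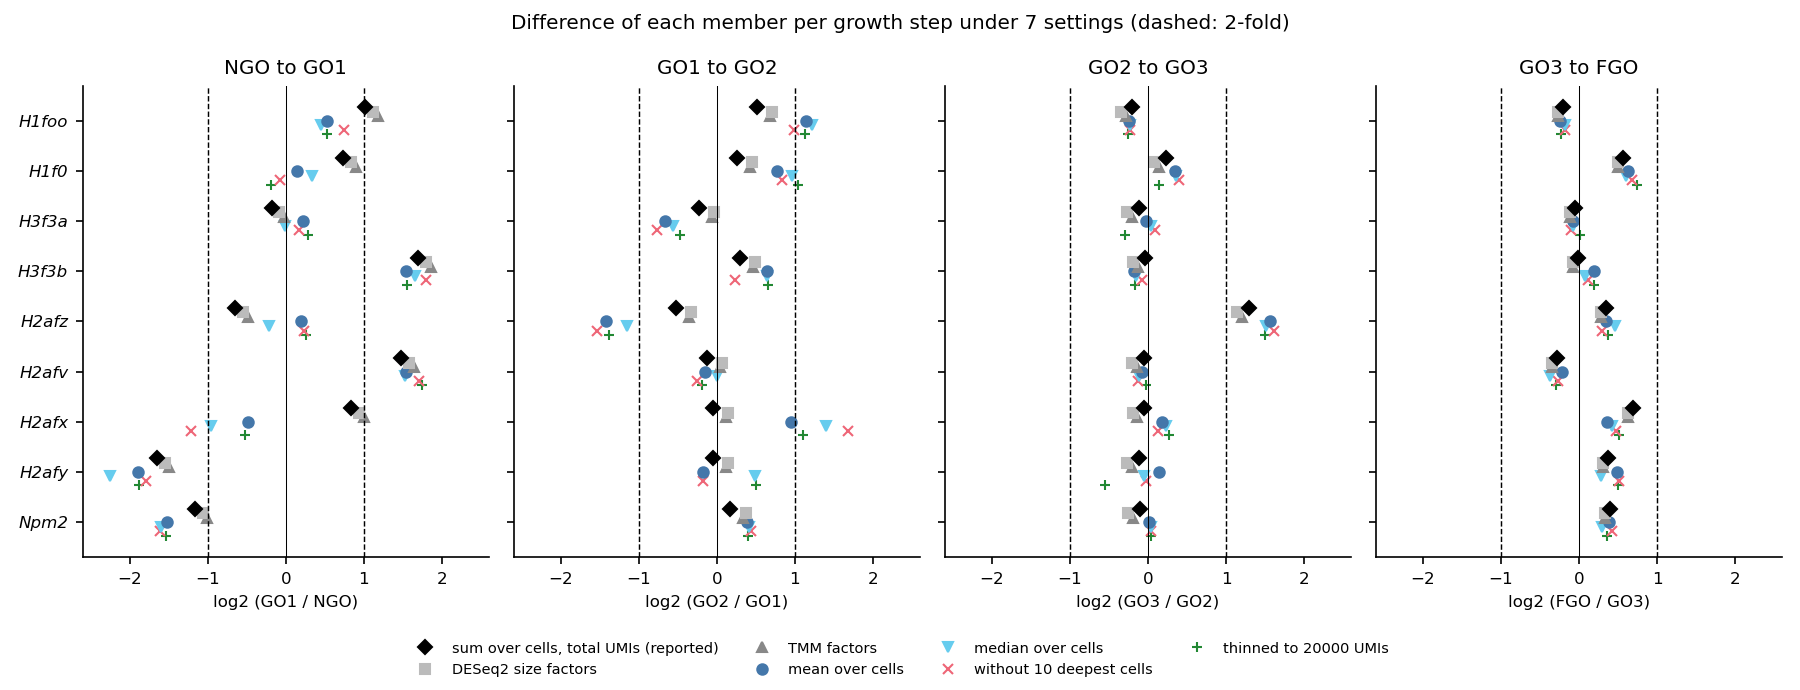
log2 difference of 9 members (Hira left out, below 10 CPM) at each of the 4 growth steps, under the stage sums (black diamonds) and 6 alternatives, with dashed lines at 2-fold. H3f3b and H2afv lie to the right and H2afy and Npm2 to the left of the lines at NGO to GO1 under all 7 settings, and H2afz lies to the right at GO2 to GO3, whereas H2afx lies on both sides of 0 at NGO to GO1.

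At the steps after GO1 the shares of genes that passed were small for members and for all genes. From GO1 to GO2 0 of 9 members passed by sums (3.14% of 7356 genes did), from GO3 to FGO 0 of 9 (5.96% of 7622), and between them H2afz. For GO1 and GO2, other ways of weighing cells gave more: the mean over cells called H1foo and H2afz (16.5% of genes), the median H1foo, H2afz and H2afx (22.4%), the sums without the 10 deepest cells H2afz and H2afx (17.7%) and thinned cells H1foo, H2afz, H2afx and H1f0 (24.7%). Over the whole of growth, from NGO to FGO, 6 of 9 members passed (27.3% of 8132 genes, 11.3% higher and 16% lower): H1foo, H1f0, H3f3b, H2afv (2.02-fold, 1.92 to 2.13) and H2afx were higher in FGO and H2afy was lower. The same 6 passed in each of the 6 alternatives drawn in the plot of growth steps. In the sums the median log2 difference was 1.02 for the members and -0.12 over all genes. From GO1 to FGO, H1f0 and H2afz passed in the sums, both higher in FGO (17% of 7873 genes, 7.98% higher), and H1f0 (3.34-fold) and H2afx (2.83-fold) in the mean over cells (32.6% of genes).

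Within a stage, some members varied together or against each other from cell to cell. The pairs given here are a selection from all pairs of members. Others had values of similar size, such as H1f0 with Npm2 (0.69 in GO1 and -0.58 in NGO). Over the 26 GO2 cells the Spearman correlation of H2afx with Npm2 was 0.78 and over the 44 GO3 cells 0.82, against 0.37 in FGO, 0.27 in GO1 and -0.29 in NGO. H3f3b went against H2afx, with -0.81 in GO2, -0.65 in GO3 and -0.63 in FGO, but 0.10 in GO1 and 0.23 in NGO. H3f3b and Npm2 had 0.12 in GO1, and -0.76 in NGO, -0.71 in GO2, -0.54 in GO3 and -0.41 in FGO. These cells share libraries and differ in depth, which itself had a correlation of 0.77 with H2afx and -0.49 with H3f3b in GO2, and the part of depth in these values was not tested.

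Further factors of histone variants, chaperones and exchange were read as a list of 58 genes. From NGO to GO1, 47 of them had at least 10 CPM, and 15 of these passed the size rule by sums, 11 higher and 4 lower in GO1, beside the 46.3% of all genes. By the mean over cells 10 were higher and 12 lower, beside 56.6% of all genes, and without the 10 deepest cells 11 were higher and 11 lower. Over all genes the lower share also grew under these settings, while the higher share changed little. The shares were 20.6% higher and 25.7% lower by sums, 22.1% and 34.6% by the mean over cells, and 21.6% and 37.6% without the 10 deepest cells. The median log2 difference of the list was 0.08 in the sums. The largest folds were those of Ino80 (2.10 to 18.02 CPM, 8.57-fold higher), the core of a chromatin remodelling complex, Ipo4 (55.7 to 11.1 CPM, 5.02-fold lower), an importin that carries H3 and H4, and Nap1l3 (2.90 to 13.9 CPM, 4.80-fold higher), of a family of H2A-H2B chaperones. They were followed by Asf1a (337 to 1297 CPM, 3.85-fold higher), which hands H3-H4 to the Hira complex, by Rbbp4 (165 to 53.4 CPM, 3.09-fold lower), a histone-binding subunit of the replication chaperone CAF-1, and by Ubn1 (24.05 to 69.6 CPM, 2.89-fold higher), a partner of Hira. By the mean over cells GO1 had 18.97 CPM of Ino80, 5.73 of Ipo4, 10.2 of Nap1l3, 1585 of Asf1a, 33.004 of Rbbp4 and 75.3 of Ubn1, and these 6 genes passed in the same direction.

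**Figure D5:**
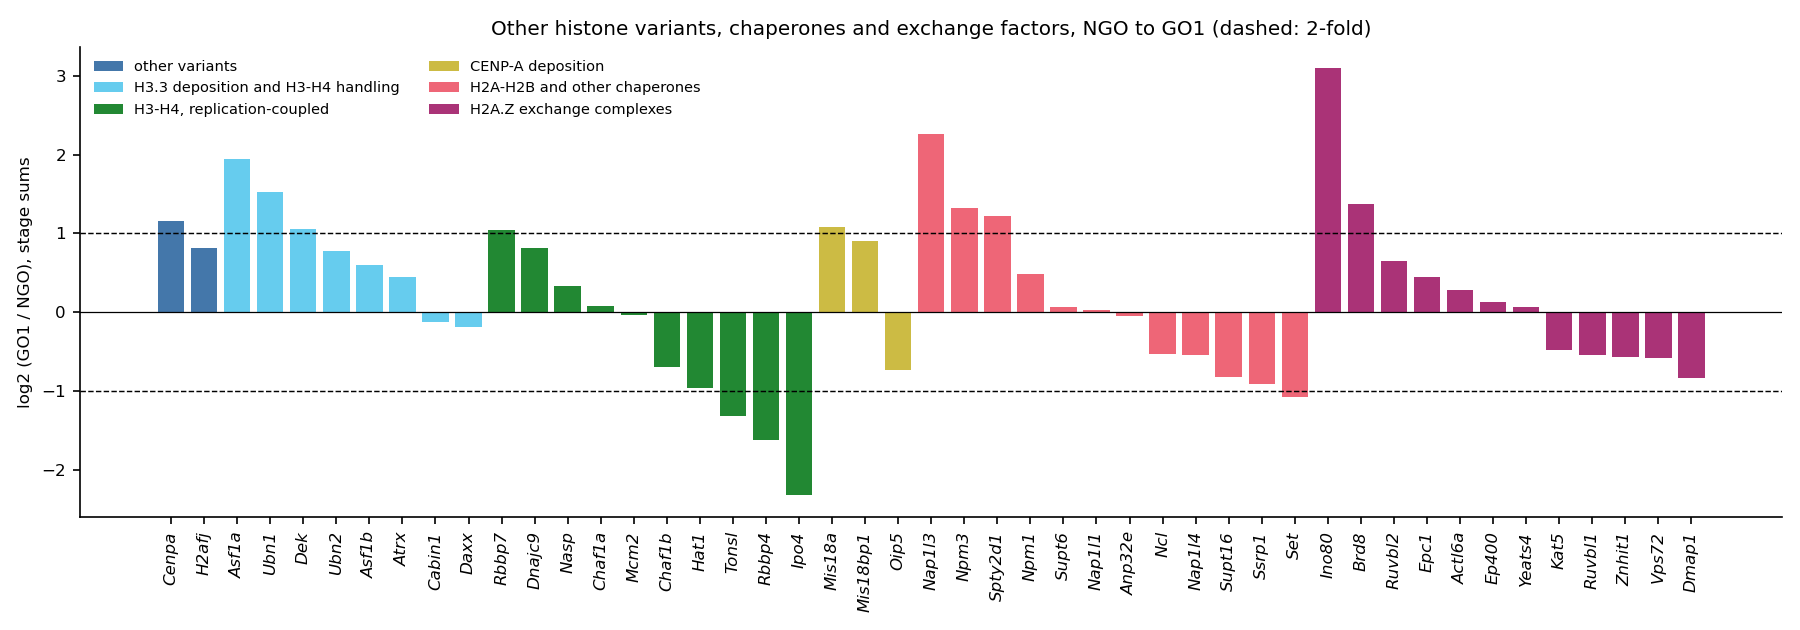
log2 ratio of GO1 over NGO in stage sums for the 47 list genes with at least 10 CPM, as bars from 0 coloured by role, with dashed lines at 2-fold. Of the genes for H3.3 deposition and H3-H4 handling 3 of 8 passed the upper line. Of those for replication-coupled H3-H4 handling 3 of 10 passed the lower line and 1 the upper. These counts hold for the stage sums, in which 20.6% of all genes were higher and 25.7% lower by the same rule.

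The counts by role are small and stand beside those of all genes from NGO to GO1. Of all genes 20.6% were higher and 25.7% lower by sums, and 22.1% higher and 34.6% lower by the mean over cells. By role and in sums, 3 of 8 genes of H3.3 deposition and H3-H4 handling were higher in GO1 and 0 lower, with a median log2 difference of 0.68. The mean over cells put 3 of these 8 higher and 2 lower, Cabin1 (2.02-fold) and Daxx (2.52-fold). Of the 10 genes of replication-coupled handling of H3-H4, 1 was higher and 3 were lower (median -0.36) by sums. The higher gene was Rbbp7 (1132 to 2325 CPM), and Rbbp4 and Ipo4 were among the 3 lower ones. By the mean over cells 0 of the 10 were higher and 5 lower. Of the 12 measured H2A-H2B and other chaperones 3 were higher and 1 lower by sums, and 3 higher and 2 lower by the mean over cells. Of the 12 measured genes of the H2A.Z exchange complexes 2 were higher and 0 lower by sums, and 2 higher and 3 lower by the mean over cells, namely Vps72 (3.57-fold), Kat5 (3.21-fold) and Dmap1 (2.68-fold). Of the remaining genes, 1 of 2 measured variants and 1 of 3 measured genes of CENP-A deposition were higher under both. The part of the deep cells in these differences was not tested. At later steps the passing genes were 1 of 46 from GO1 to GO2 (3.14% of all genes), 1 of 44 from GO2 to GO3 (4.35%) and 0 of 46 from GO3 to FGO (5.96%). Ino80 was 2.31-fold lower in GO2 than in GO1 and Brd8, a subunit of the Tip60 complex, 2.16-fold lower in GO3 than in GO2. From NGO to FGO 4 of 45 passed (27.3% of all genes), with Asf1a 2.44-fold higher and Ipo4 (3.34-fold), Rbbp4 (2.46-fold) and the chaperone Set (2.06-fold) lower, of which Set stayed below 2-fold by the mean over cells. From GO1 to FGO 3 of 47 passed (17% of all genes), with Ubn1 (3.79-fold), Brd8 (2.90-fold) and Ino80 (2.81-fold) lower in FGO. The GO1 level of Brd8 was 263 CPM by sums and 787 CPM by the mean over cells, so that its size there depends on the weighing of cells.

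The genes whose course over the 5 stages lay nearest to that of 4 members were picked by the root mean square difference of log2(CPM + 1), each centred on its own mean, among 4518 genes with at least 50 CPM in some stage. Nearest to H3f3b were Ccdc69 (0.046), Fbxw24 (0.048) and 1600002D24Rik (0.058), and with means over cells their differences were 0.198, 0.063 and 0.198. Nearest to Npm2 were Myl6 (0.017), Pld3 (0.018) and Mad2l2 (0.038), with 0.089, 0.329 and 0.152 by means over cells. For H1foo they were Ccdc84 (0.068), Pycrl (0.084) and Tcl1b4 (0.104), with 0.301, 0.135 and 0.299, and for H2afz B230219D22Rik (0.103), 3110043O21Rik (0.139) and Myh10 (0.142), with 0.364, 0.537 and 0.667. With 5 points per gene many courses are alike. Each of these 12 genes was farther from its member by means over cells than by sums. They were picked as nearest by sums, so this difference cannot show an effect of how cells are weighed.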

How the data were processed

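Single mouse oocytes were measured by single-cell RNA-seq in 4 libraries. The authors sorted reads by cell barcode, aligned them with Tophat to the mm9 transcriptome, removed duplicates by UMI, filtered cells and deposited raw UMI counts per gene and cell, without normalization. Columns were assigned to stages by their prefix, and 0 columns belonged to other samples. The barcode list and the iscCOOL-seq samples were not used here. No doublet caller was run, because oocytes were picked singly.

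Counts were summed per stage and scaled to 1000000 UMIs (CPM). Ratios of sums carry exact 95% intervals from the binomial split. Intervals cover counting error only. The size rule was 2-fold with 10 CPM in the higher stage. DESeq2 1.42.0 size factors and edgeR 4.0.16 TMM factors served as scaling alternatives only, beside means and medians over cells, sums without the 10 deepest cells, cells thinned to 20000 UMIs, limits of 1.5-fold and 50 CPM, and no filter. A log2 pseudocount of 1 was used for gene courses alone. Members and gene lists were chosen with earlier results of these data known. Named are all members, up to 6 list genes per comparison by fold and 3 genes nearest to each of 4 members.

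Positions are from GENCODE vM1 (NCBIM37, the build of mm9). Promoters are from RefSeq (GRCm38.p6), where 8 of 10 members had an entry and H2afx and Npm2 had none. Python 3.11.15 and R 4.3.3 were used.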

Additional observations from a re-analysis of the deposited data

How the results depend on the processing

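No paired analysis was possible because the cells carry no replicate number and no result comes from a test. The alternatives turned the sign of no member difference of at least 2-fold in the sums. H1foo from NGO to GO1 and H2afz from GO1 to FGO fell short of 2-fold in 4 alternatives each (mean, median, thinned cells and without the 10 deepest cells), and H2afx from NGO to GO1, 1.79-fold higher in the sums, was 2.32-fold lower without the 10 deepest cells. From NGO to GO1 the members past the rule numbered 5 in the sums and 4 by the mean, the median and thinned cells. At 1.5-fold they numbered 8, with no share of all genes at that limit to set beside this count. From GO1 to GO2, against 0 in the sums, they numbered 2 by the mean over cells, 3 by the median, 2 without the 10 deepest cells and 4 with thinned cells, and from GO3 to FGO 1 at 1.5-fold against 0. For the list of 58 genes, NGO to GO1 gave 24 by the median, 23 thinned and 27 at 1.5-fold against 15. Over all genes the share at this step was 56.6% by the mean, 60.9% by the median and 57.3% thinned, against 46.3% in the sums. GO1 to GO2 gave 4 by the mean, 6 by the median, 4 without the deepest cells, 6 thinned, 4 at 1.5-fold, 3 without a filter and 0 at 50 CPM against 1. Shares of all genes were 16.5%, 22.4%, 17.7% and 24.7% in the first 4 of these, against 3.14% in the sums. GO2 to GO3 gave 0 by the median, 2 without the deepest cells, 4 thinned, 4 at 1.5-fold and 3 without a filter against 1. The corresponding shares of all genes were 7.15% by the median, 7.54% without the deepest cells and 16.2% thinned, against 4.35%. GO3 to FGO gave 1 by the mean, 1 by the median, 1 without the deepest cells, 2 thinned, 4 at 1.5-fold and 2 without a filter against 0. All genes had 9.19%, 8.82%, 8.14% and 15.7% in the first 4 of these, against 5.96% in the sums. NGO to FGO gave 10 thinned, 21 at 1.5-fold and 10 without a filter against 4. With thinned cells 33.9% of all genes passed, against 27.3% in the sums. GO1 to FGO gave 7 by the mean, 11 by the median, 11 without the deepest cells, 9 thinned, 7 at 1.5-fold and 5 without a filter against 3. No shares of all genes stand beside the counts at 1.5-fold, at 50 CPM and without a filter. Those counts are therefore not read as results about the members or the list. The cause of the differences between settings was not tested.

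The H3f3a share by the median cell was 29.3%, 12.6%, 5.37%, 6.12% and 6.17% from NGO to FGO, and without the 10 deepest cells 26.7%, 10.5%, 5.55%, 6.16% and 5.35%. The H2afz share by the median cell was 83.996%, 60.6%, 40.7%, 70.2% and 78.6%, and without the deepest cells 83.9%, 65.1%, 43.5%, 72.1% and 79.3%. Size factors of DESeq2 and TMM factors moved all log2 differences together by 0.10 and 0.16 from NGO to GO1, by 0.19 and 0.17 from GO1 to GO2 and by -0.15 and -0.09 from GO2 to GO3. Depth limits Hira most, whose sums hold 22 to 67 UMIs per stage.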
